A study of Mus musculus with 10 samples.

Results

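Cadherins and protocadherins are the calcium-dependent adhesion molecules that hold neurons together at synapses and at other contacts. The members described here were all probe sets of the array whose platform annotation named a single gene with a symbol of the form Cdh followed by a number, or beginning with Pcdh. There were 101 such probe sets of 56 genes, out of 45037 probe sets and 18193 singly named genes on the array. All probe sets of each gene were kept. A further 6 probe sets named several clustered protocadherin genes at once and were left out.

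The tissue was whole hippocampus, from female mice of the inbred strain Balb c/J that came from one supplier and had the same date of birth. Mice had been tested repeatedly in the open field, an arena in which exploration of the exposed centre is recorded, and ranked by a composite score of activity there. The paper compared only the mice at the top and at the bottom of this ranking. The labels gave 5 mice as High Exploration and 5 as Low Exploration. Neither a treatment nor an altered gene is given for either group, and the age at dissection is not stated in the labels. Each mouse had its own array, and the values are MAS 5.0 signals, a brightness per probe set, given below as log2. In lists of 5 values per group, the mice stand in the same order throughout.

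A cadherin binds a cadherin on the facing membrane through repeated extracellular domains, and the classical cadherins are anchored inside the cell to the actin cytoskeleton by catenins. The non-clustered delta protocadherins are weaker adhesion molecules with patterned expression in neural circuits, and those of the delta-2 group recruit regulators of actin. The clustered protocadherins lie in a row of similar exons on a single chromosome, from which each neuron uses its own combination.

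The delta-2 protocadherins gave some of the brightest probe sets of the family. Of their 13 tested probe sets, 9 had a higher mean in the High Exploration group, so their promoters are shown. That share was 38.1% over all tested probe sets and 65.6% over all probe sets in the highest decile of mean signal. The promoter sequences at hand (build GRCm38.p6) covered 20 of the 56 genes, including every delta-2 gene. The 250 bases before the annotated start of transcription are printed 5′ to 3′ on the strand of the gene, with each ATTGG, which is CCAAT read on the other strand, in capitals. The windows lie on the minus strand at chr14:79771313-79771562 for Pcdh8, on the plus strand at chr3:45378148-45378397 for Pcdh10, on the plus strand at chr14:84443313-84443562 for Pcdh17, on the minus strand at chr3:49757317-49757566 for Pcdh18 and on the minus strand at chrX:133688994-133689243 for Pcdh19.
Pcdh8: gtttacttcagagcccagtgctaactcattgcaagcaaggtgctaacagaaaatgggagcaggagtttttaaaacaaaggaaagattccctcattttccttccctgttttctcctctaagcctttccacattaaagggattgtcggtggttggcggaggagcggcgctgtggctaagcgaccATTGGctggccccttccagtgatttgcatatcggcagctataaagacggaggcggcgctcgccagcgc
Pcdh10: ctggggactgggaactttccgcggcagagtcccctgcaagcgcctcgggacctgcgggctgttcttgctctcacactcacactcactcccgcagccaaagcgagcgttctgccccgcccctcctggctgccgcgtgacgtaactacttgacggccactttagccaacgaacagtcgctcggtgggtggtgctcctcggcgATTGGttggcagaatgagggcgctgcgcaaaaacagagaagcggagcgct
Pcdh17: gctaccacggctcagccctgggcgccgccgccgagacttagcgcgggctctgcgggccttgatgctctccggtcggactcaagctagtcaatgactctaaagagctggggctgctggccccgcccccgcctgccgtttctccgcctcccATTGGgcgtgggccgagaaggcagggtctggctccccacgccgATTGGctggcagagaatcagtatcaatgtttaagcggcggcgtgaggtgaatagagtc
Pcdh18: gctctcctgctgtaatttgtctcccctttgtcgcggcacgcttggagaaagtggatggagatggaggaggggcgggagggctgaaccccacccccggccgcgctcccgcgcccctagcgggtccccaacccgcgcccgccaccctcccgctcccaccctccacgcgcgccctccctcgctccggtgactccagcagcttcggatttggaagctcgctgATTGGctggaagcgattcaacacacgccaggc
Pcdh19: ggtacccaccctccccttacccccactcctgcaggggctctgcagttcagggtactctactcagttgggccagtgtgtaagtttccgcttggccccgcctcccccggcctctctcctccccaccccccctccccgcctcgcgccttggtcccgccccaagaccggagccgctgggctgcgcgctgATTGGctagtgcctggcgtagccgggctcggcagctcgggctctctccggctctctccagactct
Each of the 5 sequences held ATTGG at least once, and the match nearest to the start lay 68 bases upstream in Pcdh8, 50 in Pcdh10, 58 in Pcdh17, 32 in Pcdh18 and 65 in Pcdh19. Searched on both strands, CCAAT was present in 15 of the 23 windows of member genes (14 of 20 genes) and in 33.8% of 32851 windows of the same length over all genes. The letters GGGCGG were found in 8 of the 23 windows (8 of 20 genes) and in 32.7% of all windows. CAGGTG was in 3 windows (2 genes) and 17.2%, TGACG in 4 (3 genes) and 17.8%, and TATAA in 8 (7 genes) and 22.8%. Overlapping matches were not removed. The motif was picked after the sequences had been read, and a match is a description of letters only. No sequence is printed for the other genes.

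The arrays differed between the groups before any cadherin is considered. The spiked hybridisation controls read lower in High Exploration mice, at 13.6 ± 0.308 against 14.2 ± 0.293 in mean log2 signal (SD, n = 5 and 5, exact 2-sided permutation test p = 0.0159). Poly-A control transcripts, which go into the RNA before labelling, read 12.5 ± 0.469 and 14.1 ± 0.439 (exact permutation p = 0.00794, the smallest value that 5 against 5 allows). The Gapdh 3′ to 5′ difference was 4.72 in High and 3.72 in Low Exploration mice on the log2 scale (exact permutation p = 0.0159). Pearson correlations between pairs of arrays, across probe sets, ranged from 0.701 to 0.837. The part of these array differences in the values below was not tested. Setting the hybridisation controls equal raised every difference by 0.61 on the log2 scale, so that any difference between −0.61 and 0 turned positive, which it did in 27 of the 101 member probe sets and 12 of the tested ones. Of the hippocampal neuron markers, all 10 were measured, none at a signal of 0, and their summed signal ranged from 34797 to 50769 in High and from 24365 to 34076 in Low Exploration mice (exact permutation p = 0.00794). Their mean log2 signal was 10.84 and 10.66 (exact permutation p = 0.302), and 7 of their 26 tested probe sets had a higher and 19 a lower mean in High Exploration mice. The summed signal of the 6 astrocyte markers ranged from 54070 to 75511 and from 26771 to 42774 (exact permutation p = 0.00794), and their mean log2 signal was 12.48 and 12.06 (exact permutation p = 0.0317). The brightest of them, Gja1, read 15.13 in High and 13.88 in Low Exploration mice, while Slc1a2 and Slc1a3 differed by −0.24 and −0.16. Of the 18 tested astrocyte probe sets, 10 had a higher and 8 a lower mean in High Exploration mice. The log2 signals of the oligodendrocyte markers averaged 10.84 in the High group and 10.05 in the Low group (exact permutation p = 0.0238, and 0.77 for the summed signal). Choroid plexus markers read 8.39 and 9.29 (exact permutation p = 0.0397, and 0.0794 for the summed signal, which was higher in High Exploration mice). For the endothelial, meningeal, oligodendrocyte precursor, microglia and interneuron lists the exact permutation p lay between 0.0714 and 0.96 on both measures, and the smallest p adjusted over all 18 comparisons of marker lists was 0.0714.

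Across the family no probe set passed the test for a difference between High and Low Exploration mice. Of the 101 probe sets, 52 of 34 genes had a mean log2 signal over all 10 arrays above the median of the array and entered the main comparison with limma, and 49 did not. The last member inside this filter was a Pcdh15 probe set with a mean of 7.47 and the first outside was a Cdh23 probe set with 7.40. None of the 52 reached an adjusted p of 0.05, against 3 of the 22518 probe sets tested (0.0133%), and the smallest adjusted p of a member was 0.0706, for Cdh8. Without the filter none of the 101 passed either, beside 0.0711% of all probe sets, with a smallest adjusted p of 0.0996, for Cdh4, and 5 were higher and 17 lower at an unadjusted p under 0.05, beside 4.48% and 16.8% of all probe sets.

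At an unadjusted limma p under 0.05, 7 members had a higher and 9 a lower mean in High Exploration mice, where 9.67% of all tested probe sets were higher and 20.5% lower. The count of 7 rested on particular mice, since it was 1 without High replicate 1, 4 without High replicate 4, 2 without Low replicate 3, 2 without Low replicate 5 and 12 without High replicate 3. Of the 52 members, 25 had a higher mean and 27 a lower mean in High Exploration mice, and 38.1% of all tested probe sets had a higher mean. The median difference was −0.04 (log2, High minus Low) over the members tested and −0.31 over all probe sets tested. Over all 101 members, 33 means were higher and 68 lower with a median of −0.40, beside 31.0% higher and a median of −0.47 for the whole array, and at equal hybridisation controls 60 were higher with a median of 0.20, beside a median of 0.14 for the array. With the hybridisation controls set equal, the direction of the family turned, to 37 higher and 15 lower means and a median of 0.56, beside 62.9% higher and 0.30 for all tested probe sets, and 17 members were higher and 0 lower at an unadjusted limma p under 0.05, beside 23.2% and 3.94%. A typical tested member had a standard error of 0.413, so that its 95% interval reached 0.891 to either side.

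**Figure D1:**
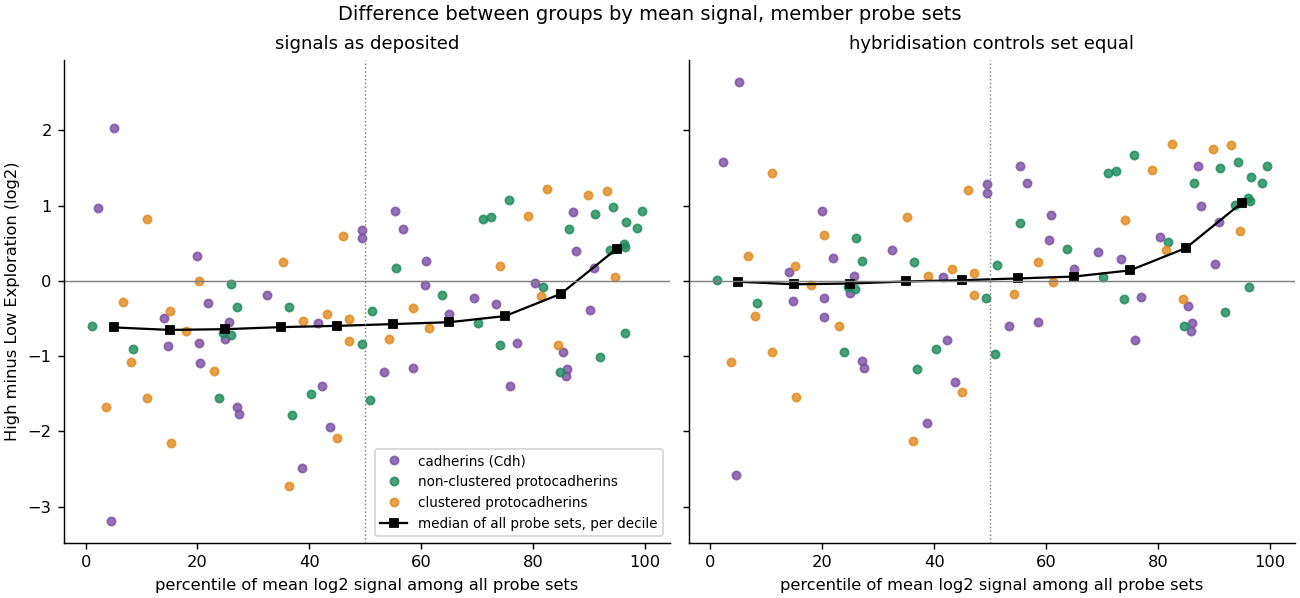
Difference between High and Low Exploration mice (log2, vertical axis) for the 101 cadherin and protocadherin probe sets, against the percentile of their mean log2 signal among 45037 probe sets, for signals as deposited (left) and with the hybridisation controls set equal (right). Points are single probe sets, black squares are the medians of all probe sets in each decile of mean signal and the dotted line is the filter. In the highest decile, 11 of 14 members lay above 0 as deposited, and in decile 3 from the bottom none of 14 did.

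The difference between groups varied with the mean signal of the probe set. In the highest decile, 11 of 14 members had a higher mean in High Exploration mice with a median of 0.47, and the median of all probe sets in that decile was 0.43, with 65.6% higher. In decile 3 from the bottom, 0 of 14 members had a higher mean and their median was −0.75, against −0.64 for all probe sets there, of which 24.1% were higher. Set to equal hybridisation controls, these medians of the members became 1.08 and −0.14, beside 1.04 and −0.04 for all probe sets of those deciles.

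On 8 of the 101 member probe sets the groups did not overlap, beside 6.01% of all probe sets. High Exploration mice were higher on 2 of the 8, beside 1.17%, and lower on 6, beside 4.84%. Without overlap at equal hybridisation controls were 5 members, beside 4.20%. Under quantile normalisation 4 members were without overlap, 1 higher and 3 lower, beside 3.77% of all probe sets. Under cyclic loess it was again 4, 1 higher and 3 lower, beside 3.84%. In the signals as deposited, the groups were apart on 4 of the 52 tested, beside 8.83%. Of the 4 tested, 2 read higher in every High Exploration mouse than in any Low Exploration mouse (Pcdh9 and Pcdh19) and 2 read lower in every one (Cdh8 and a second probe set of Pcdh9). Cdh8, a type II cadherin of synapses, was measured by probe set 1422052_at, and its log2 signal was 8.27, 8.92, 9.32, 9.22 and 9.65 in the High Exploration mice and 10.64, 10.01, 10.25, 10.06 and 10.25 in the Low Exploration mice. The highest High Exploration mouse, replicate 5, stayed under the lowest Low Exploration mouse, replicate 2. Its means were 9.08 ± 0.52 and 10.24 ± 0.25 (SD, n = 5 and 5), a difference of −1.16 with SE 0.34 and a limma adjusted p of 0.0706. Once the hybridisation controls were set equal, the difference was −0.56 and the groups overlapped.

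Pcdh9, a delta-1 protocadherin of cortical and hippocampal neurons, had probe sets that were apart in opposite directions. Its probe set 1429861_at read 13.73, 13.75, 14.45, 13.10 and 13.25 in the High Exploration mice and 13.01, 12.95, 13.02, 12.91 and 12.89 in the Low Exploration mice. All 5 High Exploration mice were above all Low Exploration mice, whose values were very close together, and the difference was 0.70 (SE 0.33, limma adjusted p = 0.172). Its probe set 1442659_at read 10.06, 9.76, 9.94, 10.08 and 10.26 in the High Exploration mice and 10.89, 10.89, 11.30, 10.70 and 11.38 in the Low Exploration mice. Here every High Exploration mouse was below every Low Exploration mouse, by −1.01 on average (SE 0.30, limma adjusted p = 0.0725). At equal hybridisation controls the second difference was −0.41 and the groups overlapped, while the first was 1.30 and they did not. Under quantile normalisation and cyclic loess this was the other way round. The first difference was then 0.12 and 0.20 with overlap, and the second −1.11 and −1.16 without overlap. The remaining probe set, 1458269_at, was spread widely in both groups and differed by −0.39 (95% interval −2.71 to 1.92), or by 0.21 at equal hybridisation controls.

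**Figure D2:**
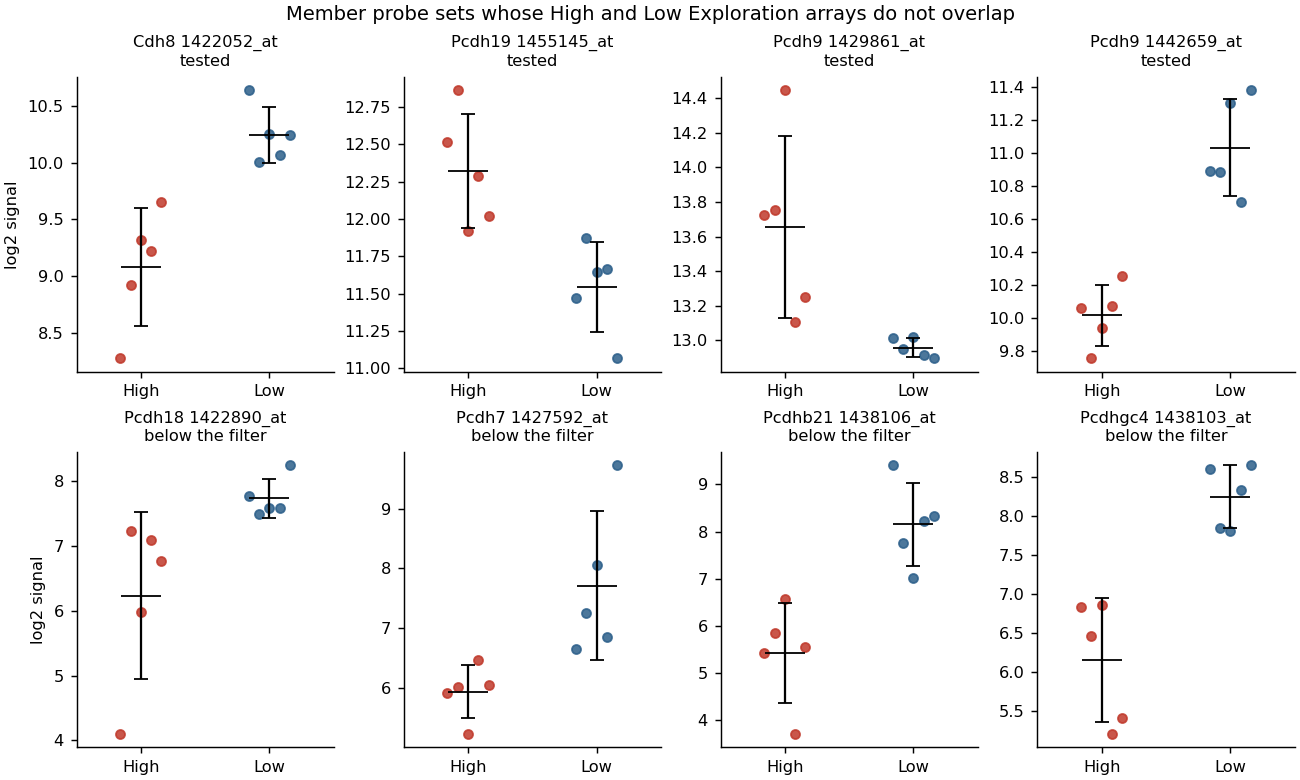
Log2 signal of each mouse (points) with group mean and SD (bars) for the 8 cadherin and protocadherin probe sets on which the High and Low Exploration mice did not overlap. The upper row shows the 4 probe sets above the filter, of which Pcdh19 and the first of Pcdh9 read higher in the High Exploration group, and the bottom row the 4 below it, all lower in that group.

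Below the filter, the 4 probe sets without overlap were all lower in High Exploration mice. Pcdhb21, a gene of the beta cluster, read 5.43, 5.84, 6.58, 3.72 and 5.55 in the High Exploration mice and 9.41, 7.77, 7.02, 8.23 and 8.34 in the Low Exploration mice on probe set 1438106_at, a difference of −2.73 (SE 0.59, limma adjusted p = 0.104 over all probe sets). Pcdhgc4, a C-type gene of the gamma cluster that neurons need for survival, read 6.84, 6.46, 6.87, 5.22 and 5.41 in the High Exploration mice and 8.60, 7.84, 7.81, 8.33 and 8.65 in the Low Exploration mice on probe set 1438103_at. It differed by −2.09 (SE 0.46, limma adjusted p = 0.106 over all probe sets), and it was the only one of the 8 that stayed without overlap and lower when the hybridisation controls were set equal. Probe set 1427592_at of Pcdh7 differed by −1.78 (adjusted p = 0.15) and probe set 1422890_at of Pcdh18 by −1.51 (adjusted p = 0.179), both by limma over all probe sets.

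Among the type I classical cadherins, all 9 probe sets of 5 genes had a lower mean in High Exploration mice, while 31.0% of all probe sets of the array had a higher one, and 5 of the 9 were above the filter with a median of −1.16. Of these 5, 4 had an unadjusted limma p under 0.05, beside 20.5% of all tested probe sets that were lower at that p, and the smallest adjusted p was 0.12. At equal hybridisation controls the median was −0.55, with 1 of the 5 higher and none at an unadjusted p under 0.05. Cdh4, the R-cadherin of retina and brain, read 8.06, 8.82, 6.04, 9.49 and 8.07 in the High Exploration mice and 9.38, 9.41, 9.04, 9.28 and 10.36 in the Low Exploration mice on its brightest probe set, 1456397_at. High Exploration replicate 4 reached into the range of the Low Exploration mice, and the difference was −1.40 (SE 0.55, limma adjusted p = 0.12). On 1449422_at, also tested, Cdh4 differed by −1.21 (SE 0.50, limma adjusted p = 0.132), with overlap between Low replicate 3 and High replicates 4 and 5. The probe set of Cdh4 below the filter, 1449637_at, had the smallest unfiltered p of the family and read 3.53, 1.58, 2.89, 2.56 and 4.31 in the High Exploration mice and 4.05, 6.39, 7.38, 6.86 and 6.11 in the Low Exploration mice. These are among the dimmest signals of the family, and they overlapped by a single mouse in each group, with a difference of −3.19 (SE 0.67, adjusted p = 0.0996 by limma over all probe sets).

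Cdh2, or N-cadherin, the main classical cadherin of excitatory synapses, had 2 probe sets above the filter. Probe set 1418815_at read 9.65, 9.11, 9.17, 9.10 and 8.50 in the High Exploration mice and 9.98, 8.79, 8.62, 9.66 and 8.61 in the Low Exploration mice, a difference of −0.03 with a 95% interval of −0.85 to 0.79, or of 0.58 at equal hybridisation controls. The groups covered largely the same range. Probe set 1449244_at read 8.39, 8.41, 8.71, 8.02 and 8.77 in the High Exploration mice and 9.19, 8.66, 9.66, 9.18 and 9.74 in the Low Exploration mice, and only the 2 highest High Exploration mice reached the lowest Low Exploration mouse, with a difference of −0.82 (SE 0.33, limma adjusted p = 0.122). Cdh15, the M-cadherin of muscle, differed by −1.16 (limma adjusted p = 0.124) with High Exploration replicate 4 lowest at 5.52, and Cdh1, the E-cadherin of epithelia, by −0.77 below the filter with values from 2.14 to 7.71. Cdh3, the P-cadherin, lay below the filter too and differed by −2.49 and −1.68 on its probe sets, both with overlap.

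The type II classical cadherins were split, with 6 higher and 6 lower means among 12 tested probe sets and a median of 0.06. Cdh9, known for its part in the mossy fibre synapses of CA3, had the higher mean in High Exploration mice, at 11.05, 9.96, 9.07, 10.61 and 10.53 in the High Exploration mice and 8.87, 9.68, 9.36, 9.38 and 9.34 in the Low Exploration mice. All High Exploration values but that of replicate 3 were above the Low Exploration values, and the difference was 0.92 (SE 0.39, limma adjusted p = 0.141). Cdh6 on probe set 1442257_at read 7.75, 8.32, 8.23, 7.99 and 8.48 in the High Exploration mice and 6.26, 7.24, 6.90, 7.70 and 8.04 in the Low Exploration mice. It differed by 0.93 (SE 0.38, limma adjusted p = 0.127) with overlap from Low replicate 5 as deposited, whereas with the hybridisation controls set equal the groups did not overlap and the difference was 1.53. Its other probe set, below the filter, differed by −1.39.

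Cdh10, a type II cadherin of the brain, had the third smallest adjusted p of the tested members, on probe set 1433302_at, which read 8.44, 9.04, 8.97, 8.79 and 9.84 in the High Exploration mice and 10.74, 10.82, 9.66, 10.38 and 9.82 in the Low Exploration mice. Only High Exploration replicate 5 reached above the lowest Low Exploration mouse. The difference was −1.27 (SE 0.38, limma adjusted p = 0.0726), and without that mouse it was −1.47 with an adjusted p of 0.0484. A further probe set drawn from the same transcript record, 1460538_at, differed by −0.94, while 1425092_at, at 10.41 ± 0.24 and 10.23 ± 0.46 (SD, n = 5 and 5), differed by 0.17 with a 95% interval of −0.53 to 0.88. Just below the filter, 1446399_at differed by 0.68 (−0.74 to 2.09). Both directions thus stood side by side within Cdh10, and the same was true of Cdh8, whose probe set 1455365_at differed by 0.26 and 1441690_at, below the filter, by −0.55, or 0.05 at equal hybridisation controls.

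Cdh11, a cadherin of bone and brain, differed by 0.39 and −0.06 on its probe sets, and Cdh22 by −0.38, each with a 95% interval across 0. At equal hybridisation controls the lower probe set of Cdh11 and that of Cdh22 turned to 0.55 and 0.22. Cdh7 had probe sets of opposite sign below the filter. Probe set 1444736_at read 7.07, 5.91, 5.35, 6.51 and 3.38 in the High Exploration mice and 3.97, 4.66, 4.51, 2.45 and 2.46 in the Low Exploration mice, and all but High Exploration replicate 5 were above the Low Exploration mice, with a difference of 2.03 (adjusted p = 0.161 by limma over all probe sets). Probe set 1460045_at read 4.89, 5.49, 7.12, 4.36 and 5.36 in the High Exploration mice and 7.13, 7.87, 7.23, 6.83 and 6.97 in the Low Exploration mice and differed by −1.77, with overlap from High Exploration replicate 3. The brightest Cdh7 probe set, the single one above the filter, differed by −0.31, which became 0.29 at equal hybridisation controls.

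Cdh5, or VE-cadherin, the junction protein of blood vessel endothelium, lay below the filter and read 4.64, 5.31, 7.47, 5.94 and 7.47 in the High Exploration mice and 7.97, 7.95, 8.61, 7.32 and 8.71 in the Low Exploration mice on probe set 1433956_at. The difference was −1.95 (SE 0.60, adjusted p = 0.144 by limma over all probe sets), and on its other probe set it was −0.55, or 0.06 at equal hybridisation controls. Of the endothelial markers, 6 of 7 were measured, none at 0. On 1 probe set per gene, 5 of the 6 had a lower mean in High Exploration mice. The differences were −1.68 in Flt1 and −1.03 in Pecam1, while that of Slc2a1 was 1.36. Over all 11 probe sets of these markers, 4 were higher and 7 lower with a median of −0.37, beside 31.0% higher over the array. Their summed signal ranged from 2482 to 25403 in High and from 1834 to 8187 in Low Exploration mice (exact permutation p = 0.167), and their mean log2 signal was 8.34 and 8.82 (exact permutation p = 0.206). The part of endothelial cells in the Cdh5 values was not tested, and in whole hippocampus fewer cells of a type cannot be told apart from less RNA per cell.

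Cadherins outside the classical types lay mostly below the filter. Cdh13, the T-cadherin, which is held in the membrane by a lipid anchor and has no cytoplasmic tail, had 2 tested probe sets that differed by −0.23 and −0.45, both with intervals across 0. At equal hybridisation controls these became 0.38 and 0.16. Below the filter, its probe sets 1454015_a_at and 1431824_at differed by −0.83 and −0.49, the latter turning to 0.12. Cdh23, which forms the tip link of hair cells together with Pcdh15, differed by 0.57 and −1.09 below the filter. Pcdh15 itself differed by −0.85 (limma adjusted p = 0.132) and −1.58 on its tested probe sets. Cdh16, Cdh17 and Cdh26, known from kidney, intestine and other epithelia, were below the filter with differences of 0.33, −0.87 and −0.19, of which that of Cdh26 turned to 0.41 at equal hybridisation controls.

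The delta-2 protocadherins, whose promoters are printed above, had 13 tested probe sets. Of these, 9 had a higher and 4 a lower mean in High Exploration mice, with a median of 0.49. Over all tested probe sets, 38.1% were higher and the median was −0.31. In the highest decile, which holds several of the delta-2 probe sets, 65.6% of all probe sets were higher, with a median of 0.43. None of the 13 was called, and their smallest limma adjusted p was 0.0906. At an unadjusted limma p under 0.05, 2 were higher and 1 lower, beside 9.67% and 20.5% of all tested probe sets. With the hybridisation controls set equal, 11 were higher and 2 lower with a median of 1.10, beside 62.9% higher and 0.30 for all tested probe sets. The median of all probe sets in the highest decile was then 1.04. At this setting 8 of the 13 had an unadjusted limma p under 0.05, all higher, beside 23.2% of all tested probe sets. The share at that p within the highest decile was not computed, so these shares do not compare probe sets of like signal.

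Pcdh19, a protocadherin encoded on the X chromosome, showed both directions. On probe set 1455145_at it read 12.52, 12.86, 11.92, 12.29 and 12.02 in the High Exploration mice and 11.47, 11.88, 11.64, 11.67 and 11.07 in the Low Exploration mice. Every High Exploration mouse was above every Low Exploration mouse, although High replicate 3 and Low replicate 2 were close, and the difference was 0.78 (SE 0.32, limma adjusted p = 0.131). On probe set 1437360_at it read 9.02, 8.71, 8.95, 8.17 and 9.77 in the High Exploration mice and 11.09, 9.76, 9.36, 9.97 and 10.48 in the Low Exploration mice. High Exploration replicate 5 alone reached into the Low Exploration range, and the difference was −1.21 (SE 0.41, limma adjusted p = 0.0906). Its remaining probe set, 1444422_at, differed by −0.69 with a 95% interval of −1.80 to 0.42. With the hybridisation controls set equal the 3 differences were 1.38, −0.60 and −0.08. They were 0.36, −1.02 and −1.03 under quantile normalisation and 0.37, −1.05 and −1.09 under cyclic loess. In both of these settings the groups overlapped on the first probe set.

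Pcdh10, which binds the actin-regulating WAVE complex, had the most probe sets of any member. The brightest, 1438134_at, read 12.13, 11.37, 11.29, 12.14 and 10.97 in the High Exploration mice and 10.73, 11.03, 10.46, 10.93 and 9.88 in the Low Exploration mice. High Exploration replicate 5 lay just under Low replicate 2, the other High Exploration mice were above all Low Exploration mice, and the difference was 0.98 (SE 0.37, limma adjusted p = 0.107). The next probe sets in order of signal, 1430667_at and 1442565_at, differed by 0.89 and 0.85, with the lowest High Exploration value in replicate 3 on both. Dimmer probe sets 1421311_at and 1425563_s_at differed by −0.19, or 0.42 at equal hybridisation controls, and by 0.17, and 1444301_at, below the filter, by −1.56.

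Pcdh8, also called arcadlin, is made in response to neuronal activity and takes N-cadherin out of the synaptic membrane. Its probe set 1447825_x_at was the brightest of the family, with 16.03, 15.07, 14.12, 15.94 and 15.53 in the High Exploration mice and 13.56, 14.88, 14.14, 15.47 and 14.02 in the Low Exploration mice. Replicates 2 and 3 of the High Exploration mice lay inside the Low Exploration range, and the difference was 0.92 (SE 0.47, limma adjusted p = 0.196). The suffix of this probe set marks probes that may pair with other transcripts too. Probe set 1417051_at of Pcdh8 read 12.06, 11.01, 10.05, 11.17 and 11.28 in the High Exploration mice and 10.49, 11.16, 10.51, 11.34 and 10.05 in the Low Exploration mice. On both probe sets High replicate 1 was the highest of all mice and High replicate 3 the lowest of its group, and the second difference was 0.41 with a 95% interval of −0.49 to 1.30.

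Pcdh17, a protocadherin of presynaptic sites in corticobasal circuits, differed by 0.49 on 1453070_at, where Low replicate 1 was lowest at 10.60, and by 0.69 on 1436920_at, with overlap on both. Pcdh18 differed by −0.56 on its tested probe set, where High replicate 3 read 5.67 and the other 9 mice were between 8.08 and 9.57. Without High replicate 3 the difference of Pcdh18 was 0.06, and at equal hybridisation controls with all mice 0.05. The dim probe set 1430427_a_at of Pcdh18 differed by −0.60, or 0.01 at equal controls.

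**Figure D3:**
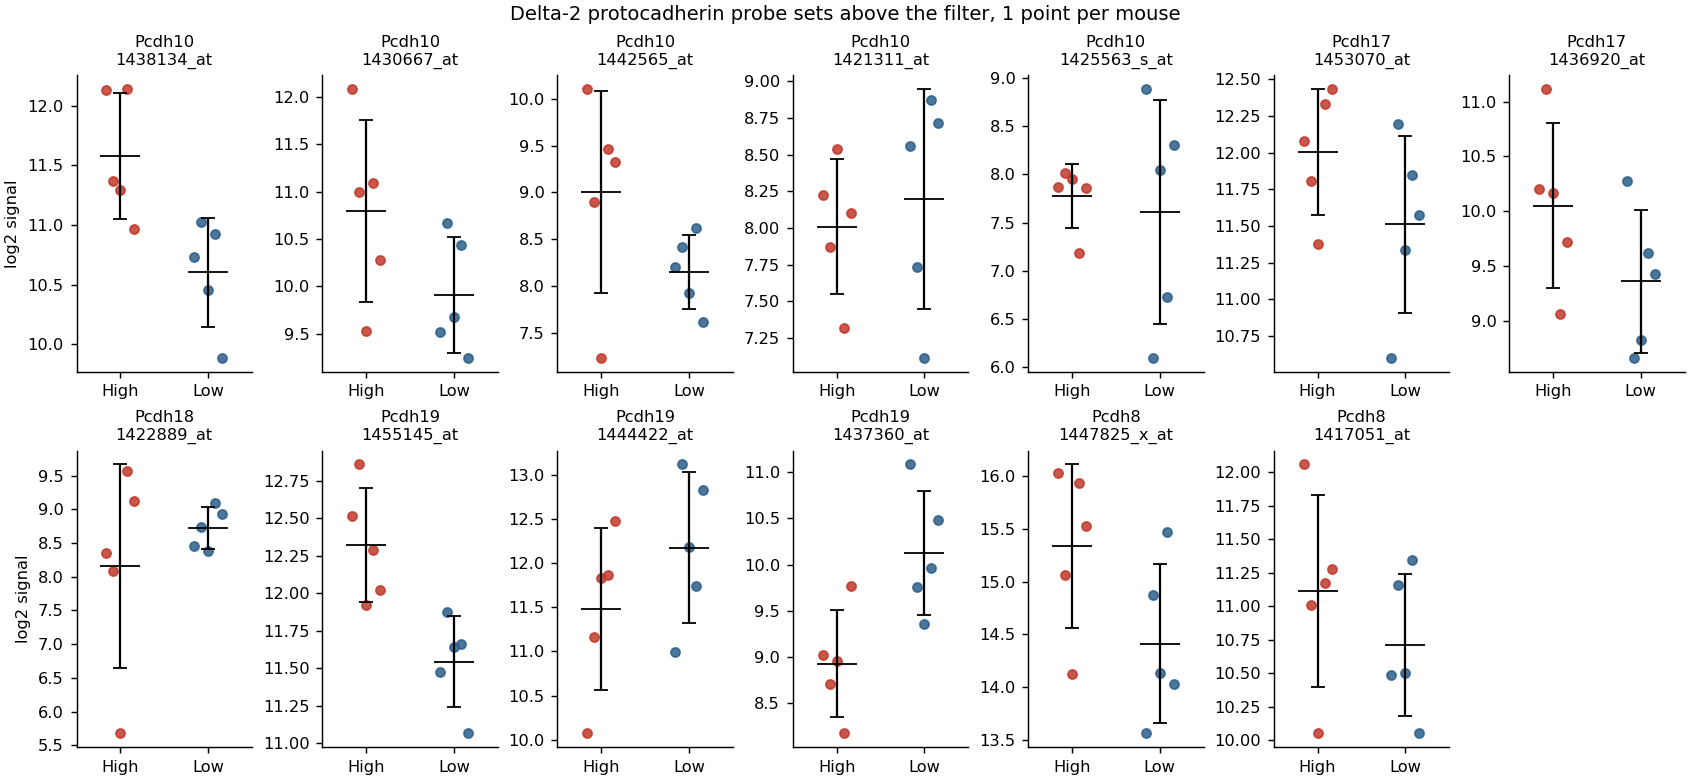
Log2 signal of each mouse (points) with group mean and SD (bars) for the 13 delta-2 protocadherin probe sets above the filter, with a separate vertical axis for each probe set. The groups were apart only on Pcdh19 probe set 1455145_at, and the Pcdh19 probe set 1437360_at had the lower mean in High Exploration mice.

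Besides Pcdh9, the delta-1 protocadherins include Pcdh7, an adhesion molecule of many brain regions. Its brightest probe set 1456214_at read 10.32, 9.09, 9.08, 9.29 and 8.80 in the High Exploration mice and 9.30, 7.93, 7.33, 8.70 and 7.99 in the Low Exploration mice, a difference of 1.07 (SE 0.43, limma adjusted p = 0.124). Low replicate 1 lay among the High Exploration mice. This is opposite in sign to the probe set of Pcdh7 described above, and the third, 1449249_at, differed by −0.03, or 0.57 at equal hybridisation controls. Pcdh11x, on the X chromosome, differed by 0.83 on its tested probe set, where Low replicate 3 was lowest at 5.42, and Pcdh1 by −0.08, or 0.52 at equal controls, each with a 95% interval across 0 as deposited. Pcdh20, a non-clustered protocadherin outside the delta groups, read 11.90, 12.39, 12.63, 11.82 and 11.89 in the High Exploration mice and 12.06, 11.89, 11.55, 11.71 and 11.17 in the Low Exploration mice on 1424701_at. The groups overlapped over a small part of their range, with a difference of 0.45 and a 95% interval of −0.25 to 1.15. Its probe set below the filter, 1451454_at, differed by −0.35, or 0.26 at equal controls.

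The clustered protocadherins were represented by all 22 genes of the beta cluster, each a single coding exon that gives a whole receptor, with 28 probe sets, and by Pcdhgc4. Of the 11 probe sets that were tested, 6 had a higher and 5 a lower mean in High Exploration mice, with a median of 0.06, and 2 were higher at an unadjusted p under 0.05, beside 9.67% of all tested probe sets. Pcdhb9 read 12.29, 11.34, 9.97, 11.91 and 11.29 in the High Exploration mice and 10.03, 10.34, 9.92, 11.21 and 9.33 in the Low Exploration mice and differed by 1.20 (SE 0.48, limma adjusted p = 0.12). High replicate 3 lay among the Low Exploration mice and its group mates above them all. Pcdhb3 read 10.19, 9.66, 8.49, 9.48 and 9.42 in the High Exploration mice and 8.58, 8.37, 8.39, 8.46 and 9.10 in the Low Exploration mice, a difference of 0.87 (SE 0.36, limma adjusted p = 0.135). Again High replicate 3 lay inside the Low Exploration range and the rest of its group above it.

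Pcdhb10 and Pcdhb20 differed by 1.22 and 1.14, with 95% intervals of −0.06 to 2.49 and −0.22 to 2.50. In both, High replicates 1, 4 and 5 were the highest of all mice. Pcdhb21, on its tested probe set 1420422_at, differed by −0.85 (−1.73 to 0.04), the same sign as its dim probe set without overlap. The remaining tested beta genes, Pcdhb2, Pcdhb7, Pcdhb15, Pcdhb16, Pcdhb17 and Pcdhb19, lay between −0.77 and 0.20, each with an interval across 0. Of these, Pcdhb2 and Pcdhb7 turned to 0.25 and 0.41 at equal hybridisation controls, and Pcdhb16 went from 0.06 to 0.66. Pcdhb14, below the filter, differed by −2.15 on 1421438_at (SE 0.67, adjusted p = 0.145 by limma over all probe sets) and by 0.83 on 1421437_x_at, with overlap on both. Over the brightest probe set of each of the 22 beta genes, 8 had a higher mean as deposited and 15 at equal hybridisation controls, beside 37.6% and 63.6% of all singly named genes of the array. Of the 22, 11 were above the filter, and neighbouring genes along the cluster did not share a direction throughout.

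**Figure D4:**
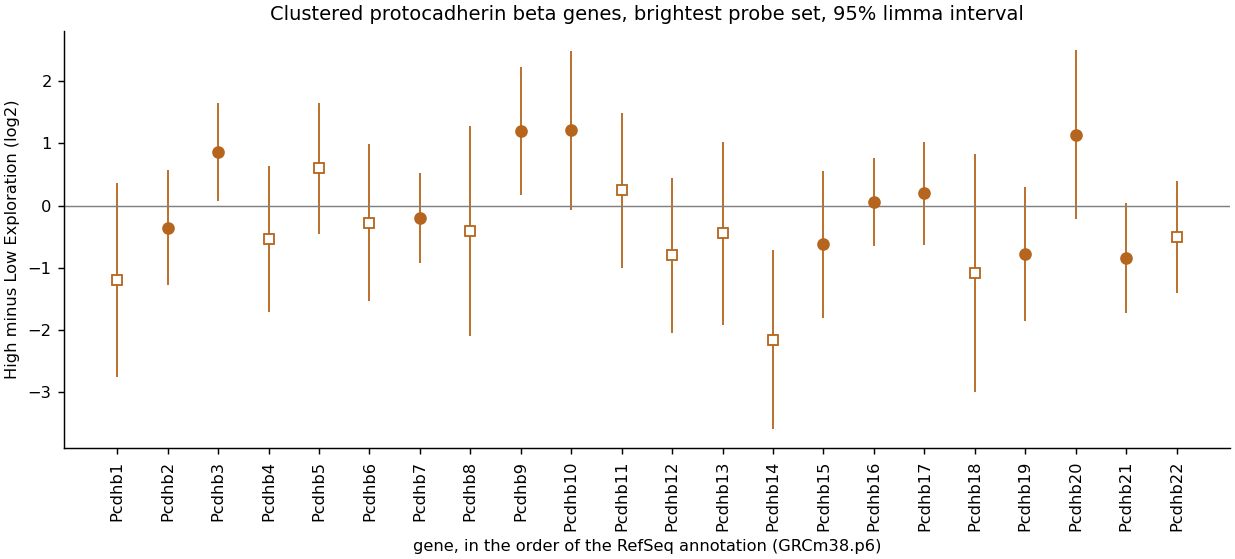
Difference between High and Low Exploration mice (log2, points) with its 95% limma interval (lines) for the brightest probe set of each beta-cluster protocadherin, in the order of the genes in the RefSeq annotation. Filled circles are probe sets above the filter and open squares those below it. Pcdhb3 and Pcdhb9 have intervals above 0, and Pcdhb14, below the filter, has one under 0.

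Within a gene, the probe sets could point in opposite directions. Of the 27 member genes with more than 1 probe set, 14 (51.9%) had differences of both signs, as did 57.2% of 9010 genes of the whole array with more than 1. The brightest probe set had a higher difference than the dimmest in 19 of the 27 genes (70.4%), beside 61.1% over all such genes. The median distance between the highest and the lowest difference within a gene was 1.40 for the members and 1.22 for all genes. Signals of different probe sets do not order transcript amounts, and where on the transcript each probe set lies was not analysed here. When the brightest probe set alone stood for each gene, 24 of the 56 genes had a higher and 32 a lower mean in High Exploration mice, with a median of −0.21, beside 37.6% higher and a median of −0.30 over 18193 singly named genes. These counts turned at equal hybridisation controls to 39 higher and 17 lower with a median of 0.39, beside 63.6% and 0.31.

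**Figure D5:**
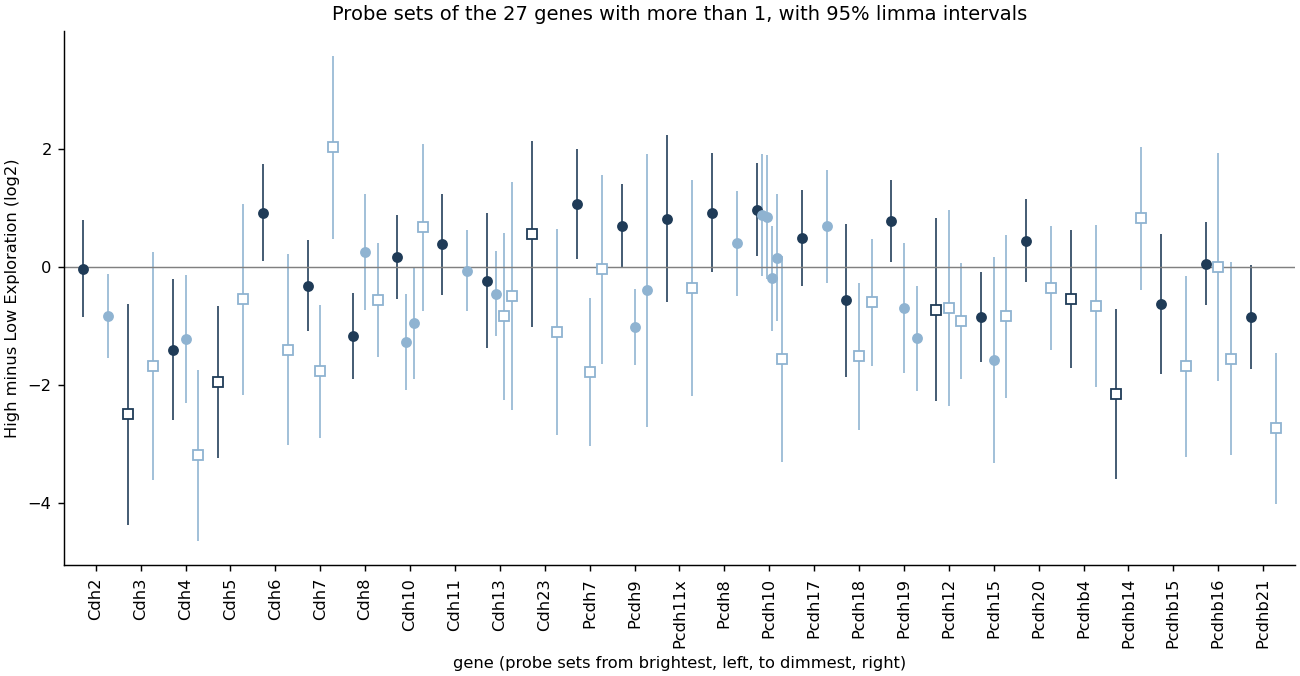
Difference between High and Low Exploration mice (log2, vertical axis) with its 95% limma interval for every probe set of the 27 cadherin and protocadherin genes that have more than 1, from the brightest on the left to the dimmest on the right within each gene. Dark symbols are the brightest probe set, filled circles are above the filter and open squares below it. Pcdh9, Pcdh19, Pcdh7 and Cdh7 have probe sets on both sides of 0.

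The catenins, through which classical cadherins reach the cytoskeleton, were measured by 21 probe sets of 10 genes, and 11 probe sets were tested. Of these, 5 had a higher and 6 a lower mean in High Exploration mice, with a median of −0.02 and no call (smallest adjusted p 0.0728). At an unadjusted p under 0.05, 3 were higher and 2 lower, beside 9.67% and 20.5% of all tested probe sets. With the hybridisation controls equal, 7 were higher and 4 lower with a median of 0.58. Ctnna1, or alpha-catenin, which binds actin, had differences of 1.20 (SE 0.36, limma adjusted p = 0.0728, groups without overlap) and 1.28 (SE 0.39, adjusted p = 0.0754) on its tested probe sets. Ctnnb1, or beta-catenin, which binds the cadherin tail and also serves Wnt signalling, differed by 0.46. Ctnnd2, the delta-catenin of neurons, differed by 0.97 and −0.83, again with both signs. Ctnnbip1, an inhibitor of beta-catenin in the nucleus, differed by −1.31 on a probe set without overlap and by −0.10 on its other, and Ctnnd1, the p120 catenin that keeps cadherins at the membrane, by −1.27.

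Related families gave no call either. Of the other cadherin superfamily genes, which include the Celsr, Fat, calsyntenin and desmosomal genes, 15 probe sets were tested, 4 higher and 11 lower with a median of −0.41. The smallest adjusted p was 0.0642, for a Celsr2 probe set at −1.66. A brighter Celsr2 probe set differed by −0.55 with overlap (limma adjusted p = 0.367), or 0.06 at equal controls. With the hybridisation controls equal, 11 were higher and 4 lower with a median of 0.20. Cadherin partners and processing enzymes had 12 higher and 14 lower means among 26 tested probe sets, with a median of −0.20 and a smallest adjusted p of 0.0815, and turned to 20 higher and 6 lower with a median of 0.40 at equal controls. Genes that act at the promoters of clustered protocadherins, such as the cohesin subunits and Ctcf, had 12 higher and 13 lower means among 25, with a median of −0.05, and 15 higher and 10 lower with a median of 0.56 at equal controls. Their smallest adjusted p was 0.0594, for a probe set of Wapl, the cohesin release factor, with a higher mean by 1.93 without overlap between the groups. The other tested Wapl probe set differed by 0.78 with overlap (limma adjusted p = 0.269). In this list 3 tested probe sets were without overlap, 2 higher and 1 lower, beside 8.83% of all tested probe sets. Besides Wapl, these were Stag2 at 1.19 (limma adjusted p = 0.0684) and Setdb1 at −1.60 (limma adjusted p = 0.0665). The remaining Setdb1 probe sets differed by −1.53 and −0.96.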

How the data were processed

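The values are microarray intensities, MAS 5.0 signals that the authors computed from the scanned arrays and deposited on a linear scale, 1 per probe set and mouse. The trimmed mean of every array was 500, and the authors applied no further normalisation between arrays. RNA was labelled with biotin. On extraction the labels name columns and the methods columns or Trizol, and on amplification the labels name a standard protocol and the methods 2 rounds, which is not settled here. Since the series text on the design covers a different experiment, groups follow the sample titles. The methods state that mice were group housed, and nothing further says how the samples relate. With 1 array per mouse, the p-values rest on the spread between these 10 arrays. In that spread, differences between mice and between array preparations cannot be told apart.

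Signals were log2 transformed without a pseudocount. After 64 control probe sets were left out, those whose mean over all arrays exceeded the array-wide median of means were compared with limma 3.58.1 in R 4.3.3 (lmFit and eBayes), with Benjamini-Hochberg adjustment over 22518 probe sets and a threshold of 0.05. Values per array were compared by exact 2-sided permutation over the groupings of 5 against 5. Gene names came from the platform annotation, and all 56 genes matched the RefSeq table (GRCm38.p6). No other column of values was present. The members and lists were chosen with earlier results of these data known. The text names every probe set of genes that passed limma, had groups without overlap, stood among the 12 smallest p, or belonged to a list of well-known family members, and other members as a description of their subfamily. The alternatives were quantile, median, cyclic loess and control-based scaling, a pseudocount of 23.0, other filters, array weights and leaving out each mouse. The procedure was also run on simulated data with independent noise per probe set. These held no array-wide difference between groups, so they cannot show how the procedure handles the differences in controls described above. The precision is limited by the number of arrays.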

Additional observations from a re-analysis of the deposited data

Results flagged for a closer look

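Within single groups, 4 values stood far from the 4 other mice, over 112 groups of 5 values examined, where chance alone flags about 1 in 20 groups, or 5.6. Low Exploration replicate 5 read 10.36 on Cdh4 probe set 1456397_at, and the rest of its group read 9.04 to 9.41. High Exploration replicate 4 read 5.56 on Cdh8 probe set 1441690_at against 6.81 to 7.23, and 7.19 on Pcdh10 probe set 1425563_s_at against 7.86 to 8.01. Low Exploration replicate 1 read 5.46 on Pcdh18 probe set 1430427_a_at, and the rest of its group 3.55 to 4.00. These are log2 signals.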

How the results depend on the processing

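The count of members called was 0 in the signals as deposited and under quantile, cyclic loess and control-based scaling, the pseudocount, no filter and a filter at the 25th percentile. It was 1 under median centring (Cdh6 probe set 1442257_at, 1.46, adjusted p = 0.0498 by limma), 3 with limma array weights (Cdh8 −1.23, adjusted p = 0.0444, Cdh10 −1.33, adjusted p = 0.0454, and Pcdh9 −1.02, adjusted p = 0.0475) and 1 without High Exploration replicate 5 (Cdh10 −1.47, adjusted p = 0.0484), and 0 to 1 over all leave-one-out fits. The cause of these changes was not tested. Over all tested probe sets 3 were called, and 906 under median centring, 5 under cyclic loess, 0 with the hybridisation controls set equal (6106 at an unadjusted p under 0.05), 366 with the pseudocount, 32 without a filter, 11 at the 25th percentile, 2186 with array weights and 2 to 1042 when a mouse was left out, the highest without High replicate 5. The median difference of the tested members, −0.04, became 0.17 under quantile normalisation, 0.49 under median centring, 0.17 under cyclic loess, 0.56 with the hybridisation controls set equal, 0.079 with array weights, −0.40 without a filter, −0.35 at the 25th percentile and −0.12 to 0.096 when a mouse was left out, turning positive without High replicate 2 or 3 or Low replicate 1, 3 or 4. That of all tested probe sets, −0.31, became −0.0090 under quantile normalisation, 0.23 under median centring, −0.017 under cyclic loess and 0.30 with equal controls. Members higher at an unadjusted p under 0.05 numbered 16 under median centring, 17 with equal controls and 1 to 12 when a mouse was left out, and members lower numbered 4 under quantile normalisation, 0 under median centring, 4 under cyclic loess, 0 with equal controls, 17 without a filter and 16 at the 25th percentile. Means were higher in 34 members under quantile normalisation and under cyclic loess, in 36 under median centring and in 37 with equal controls, of 52.

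Catenins called numbered 3 under median centring (Ctnnd2 and both of Ctnna1), 1 with array weights and 0 to 1 when a mouse was left out, the 1 being Ctnna1 without High replicate 5, and their median became 0.36 under quantile normalisation, 0.51 under median centring, 0.34 under cyclic loess, 0.58 with equal controls, −0.71 without a filter and −0.18 to 0.13 when a mouse was left out. For the other superfamily genes 1 was called without a filter (Dsc3, −3.33) and 1 with array weights (Celsr2, −1.72), and their median became −0.011 under quantile normalisation, 0.13 under median centring, 0.014 under cyclic loess, 0.20 with equal controls and −0.67 without a filter. Of 448 comparisons of 56 named probe sets under 8 other settings, 393 kept their direction and side of the threshold, 3 passed it newly and 52, of 14 probe sets, reversed, with log2 differences as follows. Under quantile normalisation they were Cdh2 1418815_at 0.28, Pcdh10 1421311_at 0.30, Cdh5 1422047_at 0.041, Cdh13 1423551_at 0.057, Pcdh18 1430427_a_at 0.0038, Cdh13 1431824_at 0.11, Cdh13 1434115_at 0.21, Cdh11 1435120_at 0.44, Cdh8 1441690_at 0.014, Pcdh7 1449249_at 0.55, Pcdh20 1451454_at 0.24, Cdh7 1456970_at 0.082 and Pcdh9 1458269_at 0.11. Under median centring they were Cdh2 1418815_at 0.51, Pcdh10 1421311_at 0.35, Cdh13 1423551_at 0.091, Cdh13 1431824_at 0.046, Cdh13 1434115_at 0.31, Cdh11 1435120_at 0.48, Pcdh7 1449249_at 0.50, Pcdh20 1451454_at 0.19, Cdh7 1456970_at 0.22 and Pcdh9 1458269_at 0.14. Under cyclic loess they were Cdh2 1418815_at 0.25, Pcdh10 1421311_at 0.33, Cdh5 1422047_at 0.10, Cdh13 1423551_at 0.061, Pcdh18 1430427_a_at 0.018, Cdh13 1431824_at 0.15, Cdh13 1434115_at 0.24, Cdh11 1435120_at 0.48, Cdh8 1441690_at 0.052, Pcdh7 1449249_at 0.61, Pcdh20 1451454_at 0.29, Cdh7 1456970_at 0.10 and Pcdh9 1458269_at 0.18. With equal hybridisation controls they were Cdh2 1418815_at 0.58, Pcdh10 1421311_at 0.42, Cdh5 1422047_at 0.061, Pcdh18 1422889_at 0.046, Cdh13 1423551_at 0.16, Pcdh18 1430427_a_at 0.0094, Cdh13 1431824_at 0.12, Cdh13 1434115_at 0.38, Cdh11 1435120_at 0.55, Cdh8 1441690_at 0.053, Pcdh7 1449249_at 0.57, Pcdh20 1451454_at 0.26, Cdh7 1456970_at 0.29 and Pcdh9 1458269_at 0.21. With array weights they were Cdh2 1418815_at 0.12 and Cdh11 1435120_at 0.036. Leaving out a mouse reversed 19 of 560 comparisons, of 10 probe sets, whose differences then ranged over −1.24 to 0.14 for Cdh1 1448261_at, −0.21 to 0.047 for Cdh11 1435120_at, −1.02 to 0.084 for Cdh13 1431824_at, −0.57 to 0.24 for Cdh13 1434115_at, −0.16 to 0.18 for Cdh2 1418815_at, −0.051 to 0.47 for Cdh8 1455365_at, −0.21 to 0.48 for Pcdh10 1425563_s_at, −0.91 to 0.061 for Pcdh18 1422889_at, −0.37 to 0.52 for Pcdh7 1449249_at and −1.18 to 0.16 for Pcdh9 1458269_at. No paired analysis was possible because the labels give no replicate numbers shared between the groups. Detection calls were not used here, and how far a signal stood above background was not measured.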
